A study of Bombus terrestris with 8 samples.

Results

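The late regions of the *B. terrestris* genome are places where ATAC-seq found a peak in both adult and both pupal samples and in none of the egg and larval samples. They were chosen by the presence of peaks alone. The distinct intervals of all 8 peak lists on the 18 placed chromosomes of Bter_1.0 were merged where they overlapped by 1 bp or more, and this gave 52844 merged regions. Of these, 940 (1.78%) were late regions. Regions with a peak in both adult and both pupal lists numbered 11850 when egg and larval peaks were allowed, and the late regions made up 7.93% of these.

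The study profiled whole worker bumblebees of 4 stages (egg, larva, pupa and adult) from commercial colonies, with 2 biological replicates per stage and no treatment. An adult sample was 1 individual worker, whereas the egg, larval and pupal samples were pools of about the volume of an adult bee, and the pupae had pigmented eyes but undeveloped wings. Where the adult is compared with another stage, stage and pooling therefore cannot be told apart. The samples hold all tissues of the body, no age in days is given in the sources used here, and the stage labels were not checked against marker genes.

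In ATAC-seq, a transposase inserts sequencing adaptors into DNA that is not wrapped up by nucleosomes, so that a peak marks open chromatin such as an active promoter or enhancer. Bumblebees are holometabolous: most larval tissues are broken down in the pupa while legs, wings, flight muscle, compound eyes and the adult nervous system are built. In a whole animal, a region that is open in fewer cells and a region that is less open in each cell cannot be told apart. The sequence and the genes of Bter_1.0 were not used here, so the regions are given by position.

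The 8 lists held 12331 to 37502 distinct intervals, with the fewest in the larva. On the placed chromosomes there were 26495 and 23907 intervals in the egg lists, 11768 and 7875 in the larval lists, 26493 and 31105 in the pupal lists and 20993 and 24817 in the adult lists. The late regions took up 4.55% and 3.87% of these intervals in adult replicates 1 and 2, and 3.58% and 3.06% in pupal replicates 1 and 2. Leaving out larval replicate 1 or 2 hardly moved the number of late regions (971 or 963). The egg lists moved it more, with 1626 late regions without egg replicate 1 and 1518 without egg replicate 2. Among the 1311 regions that missed the rule by a peak in a single early list, that list was egg replicate 1 in 684, egg replicate 2 in 573, larval replicate 1 in 31 and larval replicate 2 in 23.

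Late regions were of middling to low strength. Because the lists were not normalized to each other, each peak was given its percentile by −log10 (P value) among all distinct intervals of its own list, with 100 for the strongest, and a region took its best interval. The median late region stood at percentile 38.9 in adult replicate 1, 43.7 in adult replicate 2, 41.1 in pupal replicate 1 and 49.8 in pupal replicate 2. Regions with a peak in all 8 lists stood much higher, with medians of 82.5 and 85.5 in the adult lists and 83.8 and 88.9 in the pupal lists. The 1741 regions found in both adult lists only had medians of 29.7 and 38.3, and the 3802 regions found in both pupal lists only had medians of 32.6 and 41.9. In each of the 4 lists, the late regions thus lay above the regions of 1 stage and below those of all 8 lists in the median, while their quartile range (21.3 to 56.7 in adult replicate 1) overlapped that of the regions of 1 stage (16.1 to 46.5 for the adult-only regions in that list). The presence of peaks formed all of these sets, and no test was run between them.

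**Figure D1:**
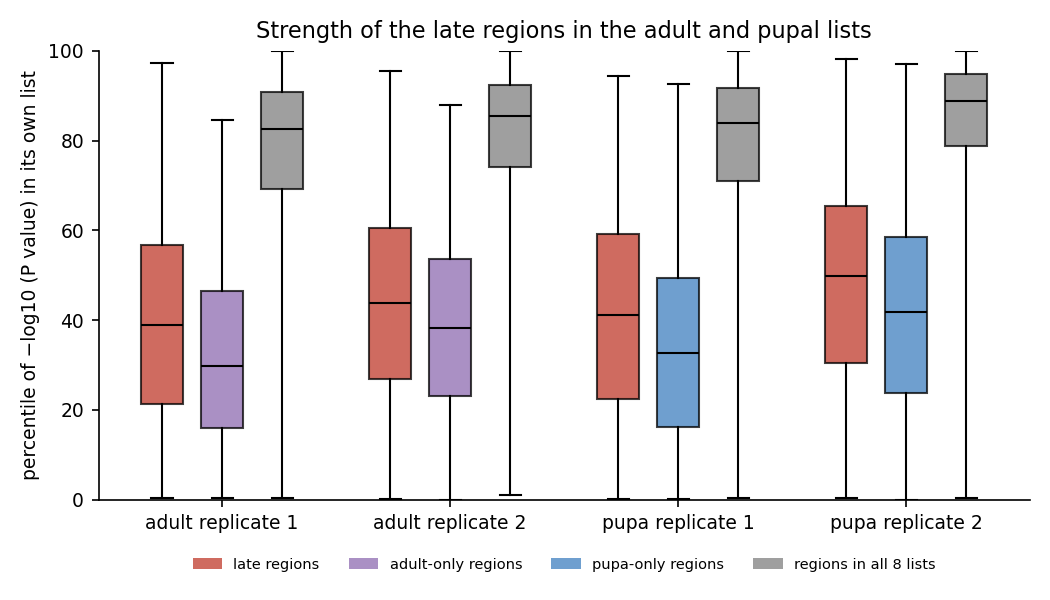
Percentile of −log10 (P value) within each adult and pupal list (y axis) for the late regions (n = 940), the regions of 1 stage (adult-only, n = 1741; pupa-only, n = 3802) and the regions in all 8 lists (n = 4880). Boxes give the quartiles with the median as a line, whiskers run to the lowest and highest region, and the late regions lie between the other sets in every list, with medians of 38.9 to 49.8.

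As deposited, the median −log10 (P value) of the late regions was 9.18 and 10.7 in the adult lists and 10.4 and 14.9 in the pupal lists. The median fold enrichment, each peak's signal over its surroundings, was 3.09 and 2.66 in the adult lists and 3.17 and 3.12 in the pupal lists. A −log10 (P value) above 20 was reached by 124 and 177 late regions in the adult lists (13.2% and 18.8%) and by 170 and 303 in the pupal lists (18.1% and 32.2%). At the upper end, 26 late regions (2.77%) exceeded 20 in all 4 lists, against 3287 (67.4%) of the 4880 regions with a peak in all 8 lists. In all 4 lists 486 late regions (51.7%) stayed at 20 or less, against 206 (4.22%) of the regions of all 8 lists. At the lower end, 53 late regions (5.64%) had a −log10 (q value) below 2 in their weakest list. That weakest list was adult replicate 1 for 354 regions, adult replicate 2 for 188, pupal replicate 1 for 297 and pupal replicate 2 for 101.

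A few late regions were strong throughout. By the lowest of the 4 percentiles, the first was NC_015767.1 from 9390928 to 9391501, the single late region above percentile 90 in all 4 lists. Its −log10 (P value) was 99.0 and 69.2 in the adult lists and 76.7 and 106 in the pupal lists, and its fold enrichment was 7.59 and 4.82 in the adults and 7.14 and 6.46 in the pupae. The stages overlapped in both values. Its interval was 522 and 560 bp wide in the adult lists and 565 and 574 bp in the pupal lists, and the 4 summits lay within 24 bp of each other.

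The second was NC_015775.1 from 1534033 to 1534908, with a −log10 (P value) of 53.4 and 46.9 in the adult lists and 66.1 and 69.4 in the pupal lists. Here both pupal percentiles (92.4 and 92.7) lay above both adult ones (89.1 and 86.0), by a small step. At the third, NC_015768.1 from 2520933 to 2521429, the order was the other way, with percentiles of 91.1 and 92.7 in the adults and 88.8 and 83.5 in the pupae. In both regions the 4 summits fell within 9 bp. The next 3 were NC_015765.1 from 942511 to 943132, NC_015768.1 from 5149621 to 5149996 and NC_015772.1 from 1946334 to 1947285, with lowest percentiles of 80.4, 77.3 and 76.9. Summits stood within 22 bp and 7 bp in the first 2 of these and spread over 183 bp in the last.

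At the other end, the peak threshold (a q-value of 0.05) decided membership. The lowest −log10 (q value) of a late region was 1.31, shared by 4 regions in the list of adult replicate 1. One of them, NC_015763.1 from 12820044 to 12820426, was weak in all 4 late lists, with a −log10 (P value) of 2.60 and 6.66 in the adults and 4.10 and 5.89 in the pupae. Another, NC_015772.1 from 3729846 to 3730529, had 2.60 and 4.47 in the adults, against 13.3 and 19.4 in the pupae. Just outside stood NC_015767.1 from 2357645 to 2358140 and NC_015771.1 from 1539813 to 1540303, which had a peak in both late stages and a single early peak in egg replicate 1, with a −log10 (q value) of 1.31 and 1.498 there. In the late lists their −log10 (P value) was 5.88 and 7.47 (adults) and 7.88 and 7.15 (pupae) at the first, and 3.25 and 4.48 (adults) and 5.01 and 5.94 (pupae) at the second.

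The next question was whether adult and pupa opened the late regions to the same degree. The mean of the 2 median percentiles was 41.3 ± 3.39 (SD, n = 2) in the adult and 45.5 ± 6.20 (SD, n = 2) in the pupa, a difference of -4.13 percentile points, adult minus pupa. This was smaller than the SD of the pupal samples (exact permutation test, two-sided, p = 0.667, where 2 samples against 2 cannot give less than 0.333). By fold enrichment the means were 41.2 ± 4.68 in the adult and 44.5 ± 6.92 in the pupa (SD, n = 2 each), a difference of -3.30 with the same exact p. Neither difference kept its sign when samples were left out. Without pupal replicate 2, adult minus pupa was 4.57 by −log10 (P value) and 4.11 by fold enrichment, and without pupal replicate 1 it was 0.831 by fold enrichment. Both replicates 2 had longer lists than their replicates 1 and, by the paper's counts, more mapped reads. They also had higher median percentiles for the late regions. The part of list length or read number in these values was not tested.

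The stages were then compared region by region. In 221 regions (23.5%) both adult percentiles lay above both pupal ones, against 17.8% of all 11850 regions open in both stages. In 296 regions (31.5%) both adult percentiles lay below both pupal ones, against 34.8% of the 11850. The stages overlapped in the remaining 423. By fold enrichment the counts were 221 adult-higher and 300 adult-lower regions (23.5% and 31.9%), with 22.3% and 32.7% over the 11850. The adult-lower share was near the background by both measures, and the adult-higher share was above it by −log10 (P value) and near it by fold enrichment. With 2 samples a side there is no test for a single region.

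The gap between the stages, taken from the nearest adult to the nearest pupal percentile, had a median of 13.0 points in the adult-higher regions and 15.2 points in the adult-lower regions. It exceeded 25 points in 53 adult-higher and 93 adult-lower regions, and 50 points in 4 adult-higher and 15 adult-lower regions. Gaps of these sizes were not counted over all regions open in both stages, so these numbers do not set the late regions apart. The percentiles themselves formed these groups, so their medians describe the choice. The adult-higher regions had median percentiles of 59.3 and 62.3 in the adult lists and 22.5 and 30.7 in the pupal lists. In the adult-lower regions these were 23.7 and 30.2 in the adult lists and 61.7 and 64.1 in the pupal lists. Width went the same way, with medians of 371 and 413 bp (adults) and 292 and 306 bp (pupae) in the adult-higher regions, and of 268.5 and 296.5 bp (adults) and 423.5 and 459.5 bp (pupae) in the adult-lower regions. As width followed strength within each list, it is not a separate measure of the difference. The summits of the 4 lists spanned a median of 55 bp in the adult-higher, 62 bp in the adult-lower and 56 bp in the overlapping regions.

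**Figure D2:**
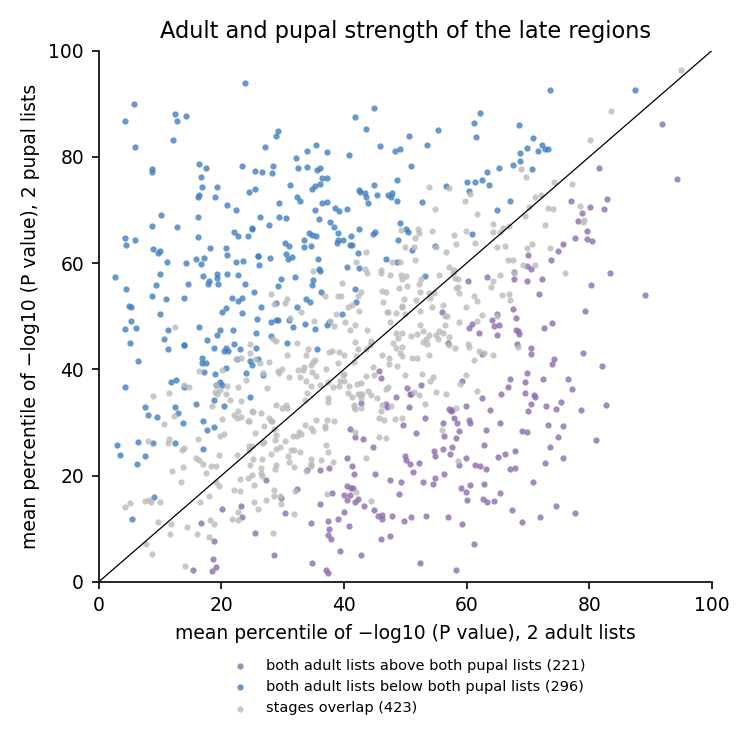
Mean percentile of −log10 (P value) of each late region in the 2 adult lists (x axis) and in the 2 pupal lists (y axis). Each point is 1 region, the line marks equal percentiles, and the colours show the 221 regions with both adult lists above both pupal lists, the 296 with both below and the 423 in which the stages overlapped.

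The largest gap with the adult above the pupa was at NC_015769.1 from 9179469 to 9180536. Its −log10 (P value) was 27.9 and 34.1 in the adult lists and 4.52 and 6.86 in the pupal lists. In percentiles this was 75.7 and 79.6 in the adults, against 7.57 and 18.2 in the pupae, a gap of 57.5 points. The pupal lists split this region into 3 summits each, where adult replicate 1 had 1 and adult replicate 2 had 2.

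Next came a pair on NC_015774.1. From 745074 to 745711, the −log10 (P value) was 26.8 and 22.7 in the adults and 4.95 and 6.23 in the pupae, with a gap of 55.2 points. From 4007413 to 4007981, it was 23.8 and 20.5 in the adults and 4.52 and 6.30 in the pupae, with a gap of 51.3 points. In the first region both pupal summits (745441 and 745576) lay to 1 side of both adult summits (745323 and 745294). In the second, the adult summits (4007674 and 4007736) lay between the pupal summits (4007632 and 4007851), which stood 219 bp apart.

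The largest gaps with the adult below the pupa exceeded those with the adult above. As gap sizes were not counted over all regions open in both stages, this does not set the late regions apart. At NC_015769.1 from 8117428 to 8117905, the −log10 (P value) was 3.33 and 4.14 in the adult lists and 48.6 and 50.03 in the pupal lists. This put the region at percentiles 2.26 and 6.48 in the adults and 87.2 and 86.3 in the pupae, a gap of 79.8 points. The region was a barely called peak in the adults and among the stronger ones in the pupae.

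At NC_015768.1 from 13351636 to 13352411, the −log10 (P value) was 4.58 and 3.22 in the adults and 52.4 and 65.3 in the pupae. Its interval was 251 and 201 bp wide in the adult lists and 739 and 776 bp in the pupal lists. At NC_015773.1 from 6153496 to 6154130, the −log10 (P value) was 4.15 and 5.89 in the adults and 55.4 and 51.3 in the pupae. The 4 summits of these 2 regions stayed within 80 and 24 bp.

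Within a stage, the replicates ranked the late regions alike, whereas the stages did not. Over the 940 regions, the Spearman correlation of the percentiles was 0.653 for the 2 adult lists and 0.601 for the 2 pupal lists, but 0.130 to 0.167 for the 4 pairs of an adult and a pupal list. By fold enrichment it was 0.660, 0.625 and 0.175 to 0.219. For interval width it was 0.593, 0.619 and 0.213 to 0.312. In the regions with a peak in all 8 lists, the correlation of the −log10 (P value) percentiles was 0.918 for the adult pair, 0.832 for the pupal pair and 0.592 to 0.699 between adult and pupa. These are descriptions across regions, which share the lists and their depth and are not independent replicates.

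Between these sets lay the regions with a peak in some of the early lists. Regions open in both late stages with a peak in 1, 2 or 3 egg and larval lists numbered 1311, 2233 and 2486. The highest correlation between an adult and a pupal list was 0.235, 0.314 and 0.382 in them. The lowest was 0.130 with 1 early list, the same as in the late regions, and 0.180 and 0.226 with 2 and 3. The median percentile in adult replicate 1 was 38.9 with 1 early list, again equal to that of the late regions, 46.5 with 2 and 62.1 with 3, and in pupal replicate 2 it was 54.0, 64.8 and 75.3. The spread of the percentiles over regions was slightly larger than in the regions of all 8 lists, with an SD between 21.6 and 23.2 in the late regions and between 17.8 and 19.8 in the regions of all 8.

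**Figure D3:**
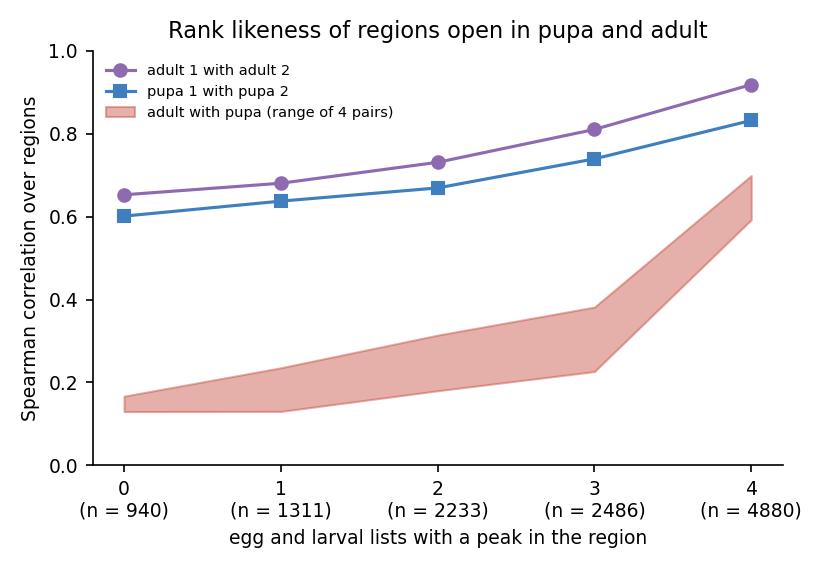
Spearman correlation of the percentiles of −log10 (P value) over regions with a peak in both adult and both pupal lists (y axis), by the number of egg and larval lists that also had a peak there (x axis, with the number of regions). Points give the adult pair and the pupal pair and the band the range of the 4 adult-pupa pairs, which runs from 0.130 to 0.167 in the late regions at 0 and from 0.592 to 0.699 at 4.

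Late regions were narrow. Merged over the lists, their median width was 463 bp (quartiles 379 and 600 bp), against 814 bp for the regions of all 8 lists, 345 bp for the adult-only and 381 bp for the pupa-only regions. A merged width grows with the number of lists that enter it, so the width within a single list was compared too. There, the late regions had a median of 312 and 340 bp in the adult lists and 341 and 383.5 bp in the pupal lists. Adult-only regions measured 279 and 313 bp in the adult lists, and pupa-only regions measured 304.5 and 345 bp in the pupal lists. The regions of all 8 lists measured 580 and 660 bp in the adults and 638.5 and 739 bp in the pupae. No late region was narrower than 200 bp in any of the 4 lists, which is the length to which the authors extended each cut site.

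Adult minus pupa, the mean of the median widths differed by -36.25 bp, with 326 ± 19.8 bp (SD, n = 2) in the adult and 362.25 ± 30.1 bp (SD, n = 2) in the pupa. Both adult medians lay below both pupal medians, which gives the smallest p this design allows (exact permutation test, two-sided, p = 0.333), though the higher adult median (340 bp) came within 1 bp of the lower pupal median (341 bp). Without pupal replicate 2 the difference was 1 bp. Both adult intervals were wider than both pupal ones in 175 late regions (18.6%), against 11.9% of the 11850 regions open in both stages, and narrower in 330 (35.1%), against 37.4%. Width followed strength within each list, with a Spearman correlation over the late regions of 0.517 and 0.553 in the adult lists and 0.586 and 0.567 in the pupal lists.

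Most late regions had a simple shape, with 1 summit in all 4 lists in 709 of 940 (75.4%). By list, 91.7% and 89.3% of them had a single summit in the adults and 90.4% and 87.3% in the pupae. Among the regions of all 8 lists these shares were 62.6% and 56.8% in the adults and 59.4% and 54.4% in the pupae. At least 3 summits were found in 5 and 11 late regions of the adult lists and in 9 and 13 of the pupal lists.

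The strongest summit of a late region usually lay at nearly the same place in adult and pupa. The rule partly sets this closeness, since it merges overlapping intervals, whose median width was 312 to 383.5 bp in the 4 lists. The distances between stages are therefore given beside those between replicates, which the same rule limits. Its position differed by a median of 21 bp between the 2 adult lists and 20 bp between the 2 pupal lists. Between an adult and a pupal list the median was 30 to 33 bp over the 4 pairs, with a mean of 32 ± 1.41 bp (SD, n = 4 pairs, which share samples). The distance between stages exceeded that between replicates (20.5 ± 0.707 bp, SD, n = 2 pairs) in every pair. In the regions of all 8 lists the medians were 13 and 14 bp between replicates and 16 to 19 bp between stages. Summits more than 200 bp apart occurred in 7.34% to 8.40% of the late regions between adult and pupa, and in 3.40% between the adult replicates and 2.87% between the pupal replicates. In the regions of all 8 lists these shares were 7.23% to 7.64% between stages, 4.18% between the adult replicates and 5.55% between the pupal replicates.

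**Figure D4:**
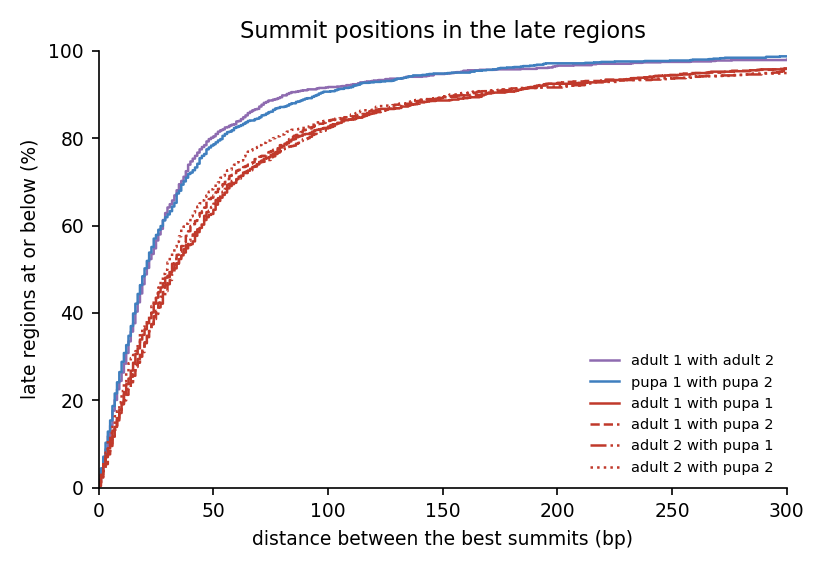
Cumulative share of the 940 late regions (y axis, %) by the distance between the best summits of 2 lists (x axis, bp, shown to 300 bp). The curves of the adult pair and the pupal pair rise faster, with medians of 21 and 20 bp, than the 4 curves of an adult with a pupal list, with medians of 30 to 33 bp.

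Over all 4 lists, the summits spanned a median of 57 bp, and they lay within 100 bp in 654 late regions (69.6%). In 23 regions (2.45%) the replicates placed their summits within 50 bp in each stage, while adult and pupa stood more than 200 bp apart. The same share was not computed for other regions, so it is not shown to be particular to the late regions. The bases covered in all 4 lists came to a median of 229 bp, or 53.1% of the merged width, against 512 bp and 67.9% in the regions of all 8 lists. No base was common to the 4 lists in 21 late regions (2.23%), against 8 (0.164%) of the regions of all 8 lists.

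The widest late region was one of the 23 with displaced summits. NC_015773.1 from 346451 to 348377 was 1927 bp wide, and only 54 bp of it were covered in all 4 lists. Its best summit stood at 346611 and 346618 in the adults and at 348176 and 348161 in the pupae, at opposite ends of the region. The second widest, NC_015772.1 from 15049775 to 15051257, had 448 bp in common to the 4 lists, and its summits lay within 110 bp. Here the pupal lists held 4 and 3 summits, against 2 in each adult list.

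The late regions lay on all 18 chromosomes but were unevenly distributed. They made up between 0.485% and 2.25% of the merged regions of a chromosome, against 1.78% overall (95% Clopper-Pearson interval 1.67% to 1.90%). The highest share was on NC_015768.1, with 109 of 4835 regions (2.25%, 1.85% to 2.71%). On NC_015773.1 it was 76 of 3415 (2.23%, 1.76% to 2.78%) and on NC_015767.1 64 of 2913 (2.197%, 1.70% to 2.80%). These 3 shares lay within each other's intervals, and which chromosome came highest changed with the setting: it was NC_015773.1 without pupal replicate 1 or adult replicate 2 and NC_015774.1 without adult replicate 1.

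The lowest shares were on NC_015779.1, with 5 of 1031 regions (0.485%, 0.158% to 1.13%), and on NC_015777.1, with 10 of 1346 (0.743%, 0.357% to 1.36%). In all, the interval lay above the overall share on 1 of the 18 chromosomes and below it on 3, the third being NC_015763.1 with 42 of 3347 (1.25%, 0.906% to 1.69%). They cover no more than counting error and were not adjusted for the 18 chromosomes, and regions that lie side by side are not independent.

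**Figure D5:**
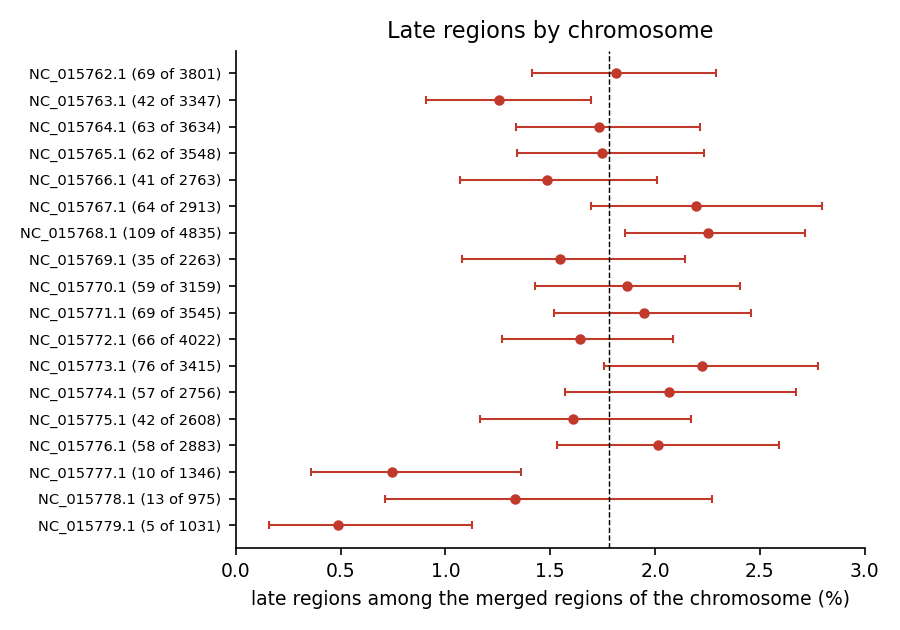
Late regions as a share of the merged regions of each placed chromosome (x axis, %), with the numbers beside the chromosome's name. Bars are 95% Clopper-Pearson intervals, the dashed line is the overall share of 1.78%, and the bars of NC_015763.1, NC_015777.1 and NC_015779.1 lie below it and that of NC_015768.1 above it.

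The 3 chromosomes with the fewest regions, NC_015777.1, NC_015778.1 and NC_015779.1, were set apart after their values had been seen. Together they held 28 late regions among 3352 (0.835%, 0.556% to 1.21%), against 912 among 49492 (1.84%, 1.73% to 1.97%) on the other 15. As a share of the regions open in both late stages, this was 3.31% (2.21% to 4.75%) on the 3 chromosomes and 8.29% (7.78% to 8.82%) on the others. Regions with a peak in all 8 lists made up 12.4% of the regions on NC_015777.1 and 11.5% on NC_015778.1, the highest shares of the 18 chromosomes, but 9.60% on NC_015779.1, near the overall 9.23%. The place of NC_015777.1 depended on the peak threshold, since with peaks of −log10 (P value) above 20 alone it had the highest share of all chromosomes, 2.28%. That setting left 249 late regions on all chromosomes, and no interval was computed for this share, which may rest on few regions.

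Across the 18 chromosomes, the share of late regions fell as that of the regions of all 8 lists rose (Pearson's r = -0.66, Spearman's rho = -0.72). It went along with the share of pupa-only regions (r = 0.71, rho = 0.76) and little with that of adult-only regions (r = 0.28, rho = 0.14). These shares have the same denominator on each chromosome and are given as a description.

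Late regions had other open regions close by. The nearest merged region of any kind lay at a median of 803 bp and within 1 kb for 546 late regions (58.1%), against 56.1% of the adult-only regions, 51.3% of the pupa-only regions and 60.0% of the regions of all 8 lists. For late regions, the nearest region with an egg or larval peak lay at a median of 1572 bp. This was 1555 bp for the adult-only regions, 1992.5 bp for the pupa-only regions and 1082 bp for the regions of all 8 lists. An early region was within 200 bp for 55 late regions (5.85%), against 7.12% of the adult-only regions, 5.37% of the pupa-only regions and 13.6% of the regions of all 8 lists. To the nearest region with a peak in all 8 lists the median was 15.5 kb for the late regions, 15.7 kb for the adult-only and 19.7 kb for the pupa-only regions, and 8.25 kb from one region of all 8 lists to the next. The nearest other late region was at a median of 46.4 kb, and 156 late regions (16.6%) had one within 10 kb. In the larger adult-only and pupa-only sets, the nearest region of the same set was at a median of 26039 and 12089.5 bp. Such distances depend on the size of the set.

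By order along the chromosome, 3.09% of the regions next to a late region were late regions themselves, 58 of 1880 neighbours. Over all merged regions, 1.78% of the neighbours were late regions. The other sets also had more of their own kind beside them, so this trait was not particular to the late regions. It was 6.49% against 3.30% for the adult-only, 12.1% against 7.20% for the pupa-only and 17.3% against 9.23% for the regions of all 8 lists. Adult-only regions made up 5.43% of the neighbours of late regions (3.30% over all regions) and pupa-only regions 8.30% (7.20% over all). Regions with a peak in all 8 lists were rarer beside late regions, with 6.49% against 9.23% over all. They were also rarer beside the adult-only (7.32%) and pupa-only regions (5.25%), so this too was not particular to the late regions.

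In windows of 100 kb, 673 of the 2175 windows with a merged region held a late region, and 54 windows held 3 or more. These 54 windows accounted for 183 late regions (19.5%). The same counts were not made for other sets, and the number of merged regions per window was not allowed for. They therefore do not show that late regions gather in certain windows. The fullest had 5 late regions each and were NC_015773.1 from 2200001 to 2300000, NC_015776.1 from 3300001 to 3400000 and NC_015777.1 from 1900001 to 2000000. They held 42, 45 and 53 merged regions, among them 0, 1 and 3 with a peak in all 8 lists. The last lies on the chromosome with the second lowest share of late regions and holds 5 of its 10.

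Members of 1 window differed in strength. On NC_015773.1, the 5 late regions had percentiles of 12.8 to 70.2 and 10.7 to 75.04 in the adult lists and 9.15 to 68.5 and 9.86 to 74.9 in the pupal lists. Both adult percentiles were above both pupal ones in 2 of them and below in 2. On NC_015776.1, 2 of the 5 had both adult percentiles below, and on NC_015777.1 the stages overlapped in all 5.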

How the data were processed

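ATAC-seq peak lists of 8 whole-body samples (egg, larva, pupa and adult, 2 each) were used. The authors filtered the reads with SOAPnuke, aligned them to Bter_1.0 with many alignments allowed per read (Bowtie2 2.2.5 per the submitters' processing notes) and called peaks in each sample separately (MACS2 2.2.5 per the same notes), extending each cut site to 200 bp and splitting intervals into summits. The deposited lists give −log10 (P value), −log10 (q value), fold enrichment against the surroundings, a summit offset and a score made from the q-value, of which the score was not used here. None was normalized between samples. As they hold peaks and not reads, the depth behind a peak is unknown.

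Distinct intervals on placed chromosomes were merged at 1 bp of overlap. A region took its best interval per list, and percentiles were computed over all distinct intervals of that list, with ties at their mean rank. Interval widths were summed within a list. Adult and pupal medians were compared by exact two-sided permutation tests over samples, and shares carry 95% Clopper-Pearson intervals, which cover counting error only. Regions were named by a rule: the 6 with the highest lowest percentile, the 3 with the largest gap each way, the 2 widest, 2 on each side of the threshold and the 3 fullest windows of 100 kb. The merging and the rule were tested on simulated data. Alternatives covered merging, thresholds, coverage, ranks and leaving out each sample; one, requiring a base shared by all 4 late lists, was chosen after seeing the data. The members and lists were chosen with earlier results of these data known. Genes, sequence and reads were not analysed here. Python 3.11.15, numpy 2.4.6, pandas 2.3.3, scipy 1.17.1 and matplotlib 3.10.9 were used.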

Additional observations from a re-analysis of the deposited data

Results flagged for a closer look

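Contigs without a place on a chromosome were outside the comparisons above. On them, the same rule found 92 late regions among 10401 merged regions (0.885%), spread over 36 contigs. None began at the first base of its contig. Their median merged width was 437.5 bp, and their median percentiles by −log10 (P value) were 37.0 and 43.5 in the adult lists and 41.6 and 46.3 in the pupal lists, near those of the late regions on chromosomes.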

How the results depend on the processing

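The number of late regions (940) was 249 with peaks of −log10 (P value) above 20 alone, where a weaker early peak no longer counts, and 2251 when 1 early list was allowed a peak. In these 2 settings the adult-higher regions (221) were 57 and 488, the adult-lower regions (296) 86 and 759, and the summit distance between adult and pupa (32 bp) 19.25 and 30.25 bp. That distance was 28 bp when a list had to cover 50% of a region and 29.5 bp between the nearest summits. The highest share on a chromosome (2.25%, NC_015768.1) was 4.92% with 1 early list allowed and 10.8%, on NC_015773.1, among regions open in both late stages. Leaving out 1 sample gave 963 to 1626 late regions, 321 to 509 adult-higher and 401 to 641 adult-lower regions, since fewer lists have to be met. Moves by over 1.5 times came without egg replicate 1 or 2 for the late regions, without adult replicate 1 or pupal replicate 1 or 2 for the adult-higher regions, and without adult replicate 1 or 2 or pupal replicate 1 for the adult-lower regions. Adult minus pupa ran from -11.2 to 4.57 percentile points by −log10 (P value), from -9.51 to 4.11 by fold enrichment and from -65 to 1 bp in width. The summit distance ran from 31.5 to 33.75 bp and the highest share on a chromosome from 2.79% to 3.21%, on NC_015768.1 only without pupal replicate 2. That chromosome was also NC_015773.1 at a −log10 (q value) of at least 2 (2.14%) and NC_015774.1 at 50% coverage (2.39%). Replicate numbers mark no shared animal or pool, and the correlation of adult with pupal lists was 0.151 and 0.167 for the same number and 0.155 and 0.130 for different numbers. With the replicate block, adult minus pupa was -4.13 and -3.30 points and -36.25 bp (exact test over 2 pairs, p = 0.5, the smallest possible). The depth of single peaks is unknown, so an absent early peak means only that none passed the threshold.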
